A study of Mus musculus with 8 samples.

Results

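The 10 genes described here encode carrier and binding proteins that the liver secretes into plasma: Alb, Trf, Ttr, Gc, Hpx, Ahsg, Rbp4, Afm, Selenop and Serpina6. They were chosen by name as rows of the raw count table, 10 of the 56748 genes listed there, and all 10 passed the filter on low counts. RNA was sequenced from primary hepatocytes of C57BL/6J Yapfl/fl; Tazfl/fl mice in 4 groups of 2 libraries. Wild-type (WT) cells came from mice injected with AAV8-TBG-Null, and knockout (KO) cells from mice injected with AAV8-TBG-Cre, so that mice of both genotypes carried the floxed alleles and an AAV8 vector, and Cre was driven by TBG, a promoter restricted to hepatocytes. Per the study's methods, Cre also switched on a tdTomato reporter, so KO cells differed from WT cells by Cre and the reporter as well. Hepatocytes were isolated 10 days after the injection and kept for 24 h on collagen-coated hydrogels of 1 kPa (soft) or 20 kPa (stiff). The mice are given as 7 to 8 weeks old, which in the study's methods for the knockout is the age at injection. The design text calls them female while the growth protocol names males, and Xist was counted 4818 to 8443 times in every library while Ddx3y, Uty, Kdm5d and Eif2s3y had 0 counts in all 8. The labels do not say that the 2 libraries of a group came from separate animals, so p-values measure the spread between these libraries, which may be technical.

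Hepatocytes release these proteins through the secretory pathway, and most of them keep a poorly soluble or reactive ligand in circulation. Albumin, the main protein of plasma, binds fatty acids, bilirubin and hormones, and vitamin D binding protein (Gc) and afamin (Afm, a carrier of vitamin E) belong to the same gene family. Transferrin (Trf) carries iron and hemopexin (Hpx) heme, transthyretin (Ttr) carries thyroxine and the retinol binding protein Rbp4, fetuin-A (Ahsg) binds calcium phosphate, selenoprotein P (Selenop) delivers selenium, and Serpina6 is the corticosteroid-binding globulin. Their genes depend on liver-enriched transcription factors such as HNF1, HNF4 and C/EBP, and several of the proteins are long used as readouts of hepatocyte function in culture.

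The deposited table places Gc, Alb and Afm together on chromosome 5, with Gc ending 1003 kb before Alb and Afm starting 42.3 kb after it, and Afp between Alb and Afm. The other genes lie on chromosomes 7 (Hpx), 9 (Trf), 12 (Serpina6), 15 (Selenop), 16 (Ahsg), 18 (Ttr) and 19 (Rbp4). Its positions differ from those of GRCm38 for all 10 genes and its build is not stated in the table, so distances only are given from it. The RefSeq table of promoters (GRCm38.p6, 250 bases before to 50 after a start) held 7 of the 10 genes. Those of the albumin family are shown because all 3, and none of the other 4, held the HNF1 motif GTTAAT, in capitals on either strand (ATTAAC is its reverse complement). They are chr5:90460620-90460919 on the plus strand (Alb), chr5:89457849-89458148 on the minus strand (Gc) and chr5:90518699-90518998 on the plus strand (Afm), each written 5′ to 3′.
Alb: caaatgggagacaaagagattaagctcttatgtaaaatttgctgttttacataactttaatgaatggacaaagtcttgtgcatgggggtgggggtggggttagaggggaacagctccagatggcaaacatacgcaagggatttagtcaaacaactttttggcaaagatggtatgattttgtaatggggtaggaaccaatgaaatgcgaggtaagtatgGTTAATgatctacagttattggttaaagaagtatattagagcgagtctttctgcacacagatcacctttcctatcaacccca
Gc: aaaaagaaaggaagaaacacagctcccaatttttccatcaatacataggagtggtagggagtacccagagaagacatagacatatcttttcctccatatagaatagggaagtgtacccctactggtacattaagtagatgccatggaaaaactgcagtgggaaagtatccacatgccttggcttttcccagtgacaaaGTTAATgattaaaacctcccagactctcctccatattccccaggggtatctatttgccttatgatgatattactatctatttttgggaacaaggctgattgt
Afm: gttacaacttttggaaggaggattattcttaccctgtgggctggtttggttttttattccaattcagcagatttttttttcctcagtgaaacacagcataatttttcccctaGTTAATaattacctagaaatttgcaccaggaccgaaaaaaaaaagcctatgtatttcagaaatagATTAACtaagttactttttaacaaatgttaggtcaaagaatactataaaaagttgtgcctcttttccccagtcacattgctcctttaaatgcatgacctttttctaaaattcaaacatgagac
The motif began 32 bases before the start in Alb and 52 in Gc, and in Afm it lay at 138 and at 73 bases. It was in 7.10% of all 32817 promoters of this table, and in none of the windows of Ahsg, Hpx, Rbp4 and Selenop. TATAAA was found in a window of Afm, Rbp4 and Selenop (13.6% of all promoters), CCAAT in 6 of the 7 genes (37.4%) and the C/EBP-type motif TTNNGNAA, which can overlap CCAAT, in all 7 (40.7%). TGTTTAC, a FOXA motif, was in windows of Rbp4 and Selenop (3.65%), and GGAATG, bound by TEAD factors, the DNA-binding partners of YAP and TAZ, in none of the 7 (14.7%). The 7 genes had 10 windows in all, with additional windows for Rbp4 and Selenop, while the percentages count single windows. By window, the C/EBP-type motif was in 9 of 10 and the FOXA motif in 2 of 10. All were searched on both strands, and a match is a run of letters and not a measured binding site.

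Library totals were 18324083 to 26442310 counts, and scaling factors (TMM) lay between 0.978 and 1.02. Yap1 counts were 1720 to 2913 in WT and 606 to 747 in KO libraries, and those of Wwtr1, which encodes TAZ, were 748 to 1325 and 277 to 410. Markers of stellate cells, endothelial cells and Kupffer cells summed to at most 58.0, 94.0 and 118 normalized CPM (counts scaled to library size) in any library, and all 3 sums were lower in WT stiff than in WT soft and higher in both KO groups. Cholangiocyte markers summed to more, 320 to 602 CPM over the libraries. Most of this was Spp1, with group means of 288 to 539 CPM, and Sox9 had group means of 36.6 to 40.1 CPM, while Cftr was at 0 in every library. Since these are bulk cultures, fewer cells of a type and less RNA per cell cannot be told apart.

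The 10 genes took 11.8% and 11.9% of all counts in the WT soft libraries and 11.9% and 12.0% in the WT stiff libraries, against 8.99% and 8.98% in KO soft and 8.92% and 8.93% in KO stiff. The group means were 11.8% ± 0.0361 (SD, n = 2), 12.0% ± 0.110, 8.98% ± 0.00776 and 8.93% ± 0.00376. WT and KO libraries did not overlap, whereas the mean on stiff minus that on soft was 0.114 percentage points in WT and -0.0561 in KO. No test was made on these shares, since an exact permutation test of 2 against 2 libraries cannot give a two-sided p under 0.333. Alb alone held 8.05% ± 0.0462 of the counts in WT soft, 8.47% ± 0.112 in WT stiff, 5.61% ± 0.000767 in KO soft and 5.56% ± 0.0281 in KO stiff (SD, n = 2), and was the most counted gene of every library. From WT soft to KO soft the sum dropped by 2.86 percentage points, of which Alb made up 85.3%. From WT stiff to KO stiff it dropped by 3.03 points, of which Alb made up 95.9%. In WT the stiff hydrogel came with 0.422 points more for Alb and 0.308 points less for the other 9 genes together, which nearly cancelled in the sum.

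**Figure D1:**
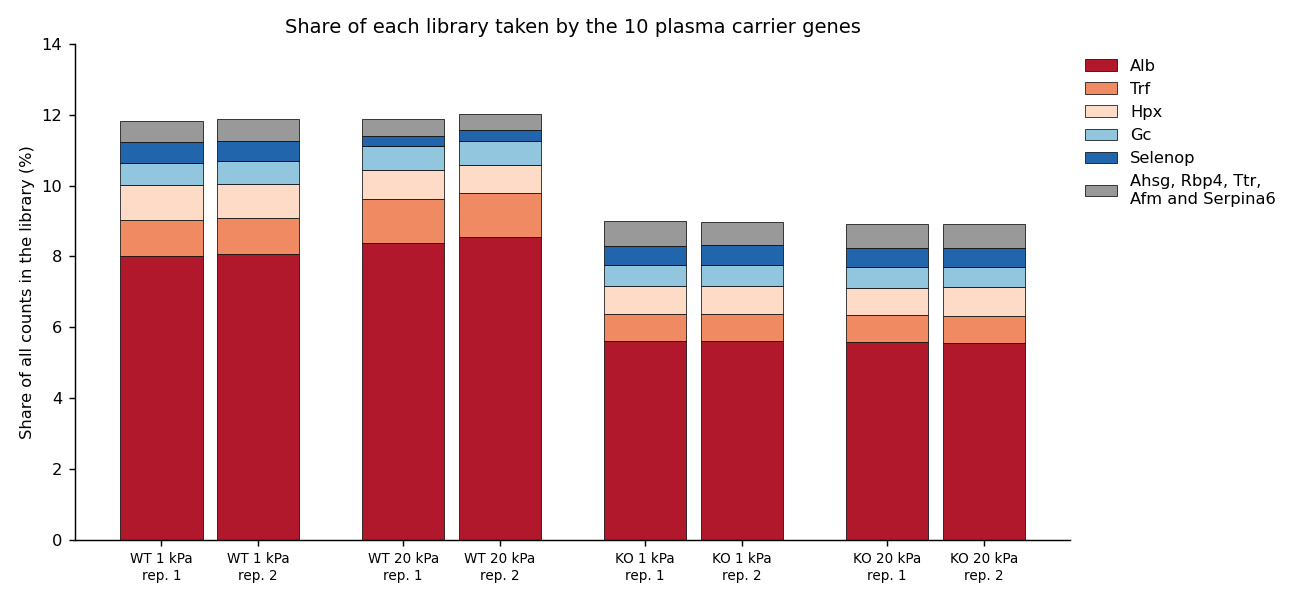
Stacked bars give the share of all counts (%, linear axis from 0) in each of the 8 libraries for Alb, Trf, Hpx, Gc, Selenop and the sum of the other 5 genes. The bars reach 11.8% to 12.0% in the 4 WT libraries and 8.92% to 8.99% in the 4 KO libraries, and the Alb segment accounts for most of the step.

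Per kilobase of gene length, the order of mean levels in WT soft was Alb, Hpx, Gc, Trf, Selenop, Rbp4, Ttr, Ahsg, Afm and Serpina6, and both KO groups had the same order. Mean levels in WT soft ran from 34980 normalized CPM per kb for Alb through 6554 for Hpx and 1090.2 for Ahsg to 62.0 for Afm and 9.31 for Serpina6. Neighbours in these orders did not overlap between libraries of a group, but some gaps were narrow. In WT stiff, Trf stood above Gc and both Ttr and Rbp4 above Selenop, with a mean for Trf only 1.02 times that of Gc and a mean for Rbp4 1.01 times that of Selenop. The name abundant carrier fits 8 of the genes, which ranked between 1 and 55 by raw counts in every library. Afm ranked 818 to 1116, and Serpina6, with 233 to 726 counts, ranked 5314 to 8313. Counting error alone gave a 95% Wilson interval of at most 12.9% of the share in either direction for Serpina6 and 3.57% for the other 9.

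In WT hepatocytes, the stiff hydrogel split these genes. Selenop and Ahsg fell to 0.538 and 0.590 of their soft level, Trf was 1.22-fold higher, and Alb, Gc, Ttr and Afm lay within 1.06-fold of their soft level. A gene was called changed at an adjusted p under 0.05 (edgeR quasi-likelihood test, Benjamini-Hochberg over 14279 genes) with an absolute log2 fold change over 0.5. By this rule 2 of the 10 genes fell and none rose, where 19.3% of all tested genes were called in either direction and 9.26% were lower. At any fold change, 8 of the 10 had an adjusted p under 0.05, 3 higher and 5 lower, against 41.0% of all tested genes. Of these 8, Gc missed under 4 of 18 alternatives (adjusted p up to 0.164, without WT stiff replicate 2), the others without WT soft replicate 1, without WT stiff replicate 1 and with upper-quartile scaling. Standard errors were as small as 0.014 (Alb) for these highly counted genes. The libraries did not overlap between the hydrogels for 9 of the 10 genes and for 68.9% of all tested genes.

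Selenop (ENSMUSG00000064373) read 5915 and 5773 normalized CPM in the WT soft libraries and 3129 and 3164 in the stiff ones. Both stiff libraries were far under both soft ones, and the log2 fold change was -0.89 ± 0.024 (SE; edgeR adjusted p = 4.86e-15). Ahsg (ENSMUSG00000022868) read 2347 and 2444 CPM on soft and 1422 and 1405 on stiff, a log2 fold change of -0.76 ± 0.029 (edgeR adjusted p = 4.20e-13). Selenop is bound by receptors of the LDL receptor family in testis and brain, and Ahsg keeps calcium phosphate from precipitating in plasma. Serpina6 read 16.6 and 16.2 CPM on soft and 11.5 and 11.8 on stiff. Its libraries did not overlap either, and its log2 fold change of -0.49 ± 0.11 (edgeR adjusted p = 0.00146) lay just under the fold threshold. Without WT soft replicate 2 or WT stiff replicate 2 the estimate was -0.50 and -0.51, past the threshold. Ccdc152 overlaps Selenop and the non-coding Gm30505 overlaps Ahsg, each on the opposite strand, with 190 and 23 counts in an average library. The study's methods name dUTP, which marks the strand, but how strand entered the counting is not given in the sources used here, so the levels of these pairs are uncertain where reads could match both.

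Among the carriers of iron and heme, Trf and Hpx moved apart. Trf (ENSMUSG00000032554) read 10476 and 10279.8 CPM in WT soft and 12684 and 12618 in WT stiff (log2 fold change 0.29 ± 0.023, edgeR adjusted p = 8.89e-09). Hpx read 9867 and 9784 CPM on soft and 8290.1 and 8205 on stiff (log2 fold change -0.25 ± 0.021, edgeR adjusted p = 2.28e-08). Both differences were larger than the spread between libraries and smaller than the fold threshold. Trf shares 79.1% of its transcript, in windows of 64 bases, with Gm20425 of GENCODE M21, which is not the annotation of the deposited table. No other gene overlaps Trf by position in the deposited table. The level of Trf is uncertain only if reads could be counted for such a gene, which was not tested. The other 9 genes shared no such window with another gene.

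The retinol carrier pair did not move together. Rbp4 read 1830.1 and 1886 CPM in WT soft and 1502 and 1508 in WT stiff (log2 fold change -0.30 ± 0.030, edgeR adjusted p = 1.59e-07). Ttr, to which Rbp4 binds in plasma, read 1592 and 1558 CPM on soft and 1626 and 1592 on stiff, with a log2 fold change of 0.03 and a 95% interval from -0.04 to 0.10 (edgeR adjusted p = 0.478). In the albumin family the differences were small. Alb (ENSMUSG00000029368) read 81619 and 82227 CPM in WT soft and 85829 and 87361 in WT stiff, a log2 fold change of 0.08 ± 0.014 (edgeR adjusted p = 1.73e-04). Gc read 6496 and 6638 CPM on soft and 6848 and 6935 on stiff (0.07 ± 0.023, edgeR adjusted p = 0.0230). Afm was the one gene of the 10 whose libraries overlapped, at 194 and 183 CPM on soft and 189.6 and 195 on stiff (0.03 ± 0.048, edgeR adjusted p = 0.678).

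**Figure D2:**
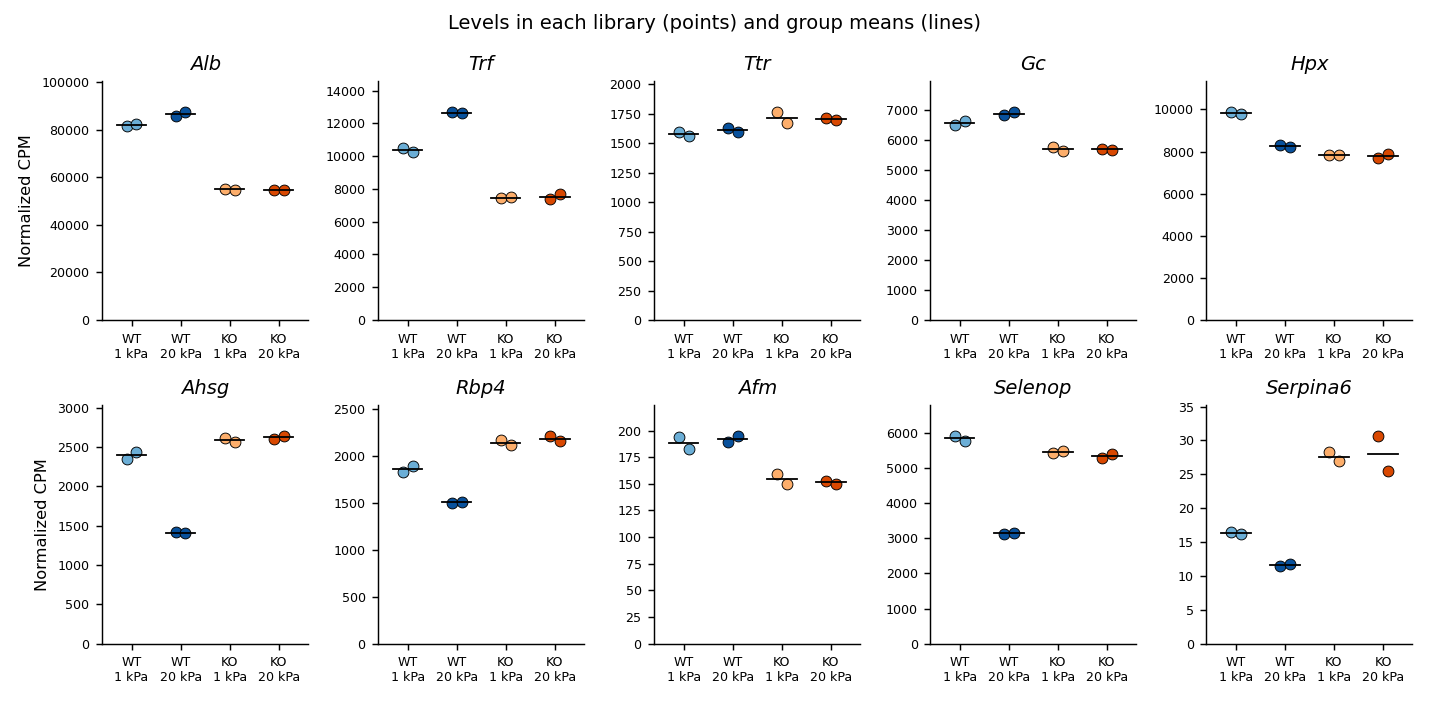
Each panel gives the normalized CPM of 1 gene in each library (points, linear axis from 0) and the group mean (line) for the 4 groups. Selenop and Ahsg are low in WT stiff alone, Alb and Trf are low in both KO groups, and the means of the 2 KO groups lie close together for every gene.

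In KO hepatocytes the same step in stiffness left none of the 10 genes called by edgeR or DESeq2. Their log2 fold changes, stiff against soft, lay between -0.03 and 0.03, the 95% intervals reached from -0.18 to 0.22, and none had an unadjusted p under 0.05. The lowest adjusted p was 0.801 (edgeR). Of all tested genes 0.0210% were called, and the same 0.0210% at any fold change. Selenop read 5431 and 5486 CPM in KO soft and 5299 and 5403 in KO stiff, and was the 1 gene of the 10 without overlap between the hydrogels (38.1% of all tested genes). Ahsg read 2612 and 2566 CPM on soft and 2608 and 2643 on stiff. The 95% interval of the log2 fold change was -0.08 to 0.02 for Selenop and -0.04 to 0.08 for Ahsg. Serpina6 had the widest interval, from -0.18 to 0.22, and its 2 KO stiff libraries, at 30.7 and 25.4 CPM, lay on either side of the KO soft libraries at 28.3 and 26.9.

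The stiffness effect was compared between genotypes by a test of the difference itself, the interaction (effect in KO minus effect in WT). It was called for 3 of the 10 genes, all higher: Selenop (0.86 ± 0.034, edgeR adjusted p = 2.67e-12), Ahsg (0.78 ± 0.041, edgeR adjusted p = 9.35e-11) and Serpina6 (0.51 ± 0.15, edgeR adjusted p = 0.0123). Among all tested genes 16.8% were called in either direction and 8.64% higher. At any fold change 7 of the 10 had an adjusted p under 0.05, against 29.4% of all tested genes. Beside the 3 called, these were Rbp4 (0.33) and Hpx (0.25), with positive differences, and Trf (-0.28) and Alb (-0.09), with negative ones, of which Alb missed in DESeq2 (adjusted p = 0.0676). Gc (-0.07, edgeR adjusted p = 0.121), Ttr (-0.04) and Afm (-0.06) did not pass. The Serpina6 result was lost without WT stiff replicate 1 (0.48, edgeR adjusted p just over 0.05) and without KO stiff replicate 1 (0.37, edgeR adjusted p = 0.0807), and it fell below the fold threshold without WT soft replicate 1 (0.48) or KO soft replicate 2 (0.47).

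On the soft hydrogel, KO hepatocytes had lower Alb and higher Serpina6 levels than WT hepatocytes. Alb fell to 0.671 of its WT level, from 81619 and 82227 CPM to 55125 and 54830.2 (log2 fold change -0.58 ± 0.014, edgeR adjusted p = 1.86e-14), with the smallest p of all 14279 genes tested. Serpina6 rose 1.69-fold, from 16.6 and 16.2 CPM to 28.3 and 26.9 (0.75 ± 0.10, edgeR adjusted p = 1.96e-05). These were the 1 lower and 1 higher gene called among the 10, where 6.67% of all tested genes were called, 2.02% higher and 4.65% lower. Trf read 7472 and 7485 CPM in KO soft, below both WT soft libraries, and its log2 fold change of -0.47 ± 0.023 (edgeR adjusted p = 3.99e-11) missed the fold threshold. All 10 genes had an adjusted p under 0.05 at any fold change, 4 higher and 6 lower, against 18.4% of all tested genes, and none overlapped between genotypes (56.2% of all tested genes). Over 18 alternatives the adjusted p (edgeR, or DESeq2 in 1 of them) reached 0.224 for Selenop, with library size as the only scaling, and 0.207 for Ttr and 0.121 for Ahsg, both without KO soft replicate 1. Selenop also missed without WT soft replicate 1 or KO soft replicate 1, and Ahsg without WT soft replicate 1. The other lower values were those of Hpx (-0.33), Afm (-0.29), Gc (-0.20) and Selenop (-0.10), and the other higher ones those of Rbp4 (0.20), Ttr (0.13) and Ahsg (0.11).

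On the stiff hydrogel 6 of the 10 genes were called between genotypes, 4 higher and 2 lower in KO. Serpina6 (2.40-fold, 1.27 ± 0.10, edgeR adjusted p = 1.00e-08), Ahsg (1.86-fold, 0.89 ± 0.029), Selenop (1.70-fold, 0.77 ± 0.024) and Rbp4 (1.45-fold, 0.54 ± 0.030) were higher. Rbp4 read 2210.4 and 2155 CPM in KO stiff against 1502 and 1508 in WT stiff. Trf fell to 0.595 of its WT level (7390.0 and 7676 CPM against 12684 and 12618, -0.75 ± 0.023, edgeR adjusted p = 5.94e-15) and Alb to 0.631 (54856 and 54501 CPM against 85829 and 87361, -0.66 ± 0.014, edgeR adjusted p = 4.86e-17). Of all tested genes 28.7% were called, 13.7% higher and 15.0% lower. All 10 genes again had an adjusted p under 0.05 at any fold change, against 51.1% of all tested genes, and none overlapped between genotypes (74.5% of all tested genes). The adjusted p reached 0.352 for Hpx, with library size as the only scaling, and 0.312 for Ttr, without WT stiff replicate 2. Ttr missed under 10 of 18 alternatives, DESeq2 and the removal of any library but those of WT soft among them. This comparison uses the WT stiff libraries that also enter the WT comparison of hydrogels, so the 2 are not independent. Gc (-0.27), Afm (-0.34), Hpx (-0.08) and Ttr (0.08) stayed under the fold threshold, and Ttr, with group means within 0.12 of each other on the log2 scale, varied least of the 10 over the 4 groups.

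**Figure D3:**
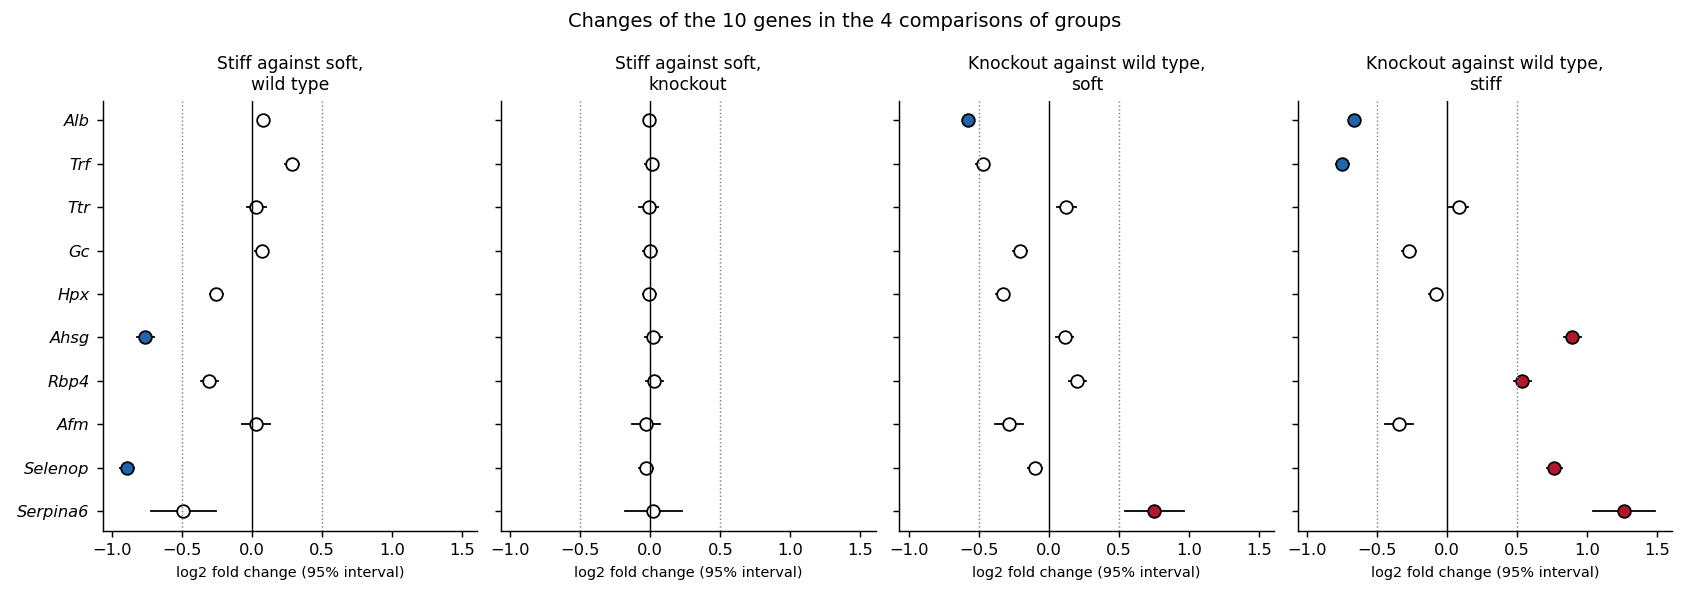
Points give log2 fold changes and lines their 95% intervals from edgeR for the 10 genes in 4 comparisons, with filled points for genes called higher (red) or lower (blue) and dotted lines at the fold threshold of 0.5. All points of the second panel, stiff against soft in KO, lie between -0.03 and 0.03, while Alb and Trf lie left of 0 and Serpina6 right of 0 in both comparisons of genotypes.

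Ratios of counts within a library need no scaling between libraries. For every 1000 Alb counts, WT libraries held a mean of 71.3 Selenop counts on soft and 36.3 on stiff, and KO libraries 99.3 and 97.9. The same ratio for Ahsg was 29.2 and 16.3 in WT and 47.1 and 48.0 in KO. Within the albumin family, Gc stood at 80.2 and 79.6 counts per 1000 Alb counts in WT and at 104 on both hydrogels in KO. Trf, the carrier that most followed Alb, stood at 127 and 146 in WT and 136 and 138 in KO. A ratio within a library shows unequal change and not which of the 2 genes moved.

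Among the genes with the profile nearest to that of Alb over the 8 libraries, by the root mean square difference of log2 CPM centred on each gene's mean, were Slc25a30 (0.029), Slc27a5 (0.044), Lbp (0.052) and Cyp2b9 (0.052), out of 10036 genes with a mean of at least 100 counts. Slc25a30 is a mitochondrial carrier, Slc27a5 a bile acid-CoA ligase, Lbp the plasma protein that binds lipopolysaccharide, and Cyp2b9 a cytochrome P450 of a large family, for which shared reads make the level uncertain. Of the other carriers, Trf was number 27 in this order (0.076), Afm number 344 and Gc number 707, while Serpina6 was number 9738. These are descriptions over 8 libraries in 4 groups.

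Other plasma transport and binding proteins were measured in the same libraries. In WT cells on the stiff hydrogel 2 of the 28 tested rose and 9 fell, where 19.3% of all tested genes were called and 9.26% were lower. The median log2 fold change was -0.35, beside -0.11 for the 10 carriers and -0.01 for all tested genes. The lowest was Igfbp1, a binding protein of insulin-like growth factors (-2.28, edgeR adjusted p = 6.41e-18), and the highest Igfals, which stabilizes their plasma complex (1.18, edgeR adjusted p = 4.76e-07). Relatives of the members by family took different courses. Afp, the fetal member of the albumin cluster, was at 17.0 CPM in WT soft and 23.2 in WT stiff (0.44, edgeR adjusted p = 0.00149) and at 23.7 and 23.8 in KO. Fetub, the paralog of Ahsg, fell from 302 to 209 CPM in WT (-0.53, edgeR adjusted p = 1.56e-08) and stood at 361 and 357 in KO. Serpina7, the thyroxine-binding globulin and a relative of Serpina6, fell from 268 to 75.0 CPM in WT (-1.84, edgeR adjusted p = 5.60e-14) and stood at 361 and 336 in KO. Haptoglobin (Hp) is no relative by family but binds free hemoglobin as Hpx binds heme, and had a log2 fold change of -0.07 between the hydrogels in WT (edgeR adjusted p = 0.0705) and fell in KO on soft (-0.77) and on stiff (-0.68).

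Of 16 genes listed as receptors or partners of the carriers, 11 were tested, not all of which take a carrier up. Of these 3 rose and 1 fell in WT on stiff, with a median of -0.03 (19.3% of all tested genes were called). Cubn, part of a receptor for albumin, transferrin and vitamin D binding protein, had the highest value (1.59, edgeR adjusted p = 0.00762) but only 7 to 44 counts, and Asgr1, a subunit of the asialoglycoprotein receptor of hepatocytes, the lowest (-0.82, edgeR adjusted p = 1.71e-10). The transferrin receptor Tfrc, named after its values were seen, rose from 30.1 to 64.9 CPM (1.11, edgeR adjusted p = 2.30e-10). Of 18 tested genes for handling retinol, iron and selenium, 1 rose and 4 fell (median -0.18). Aldh1a1, which oxidizes retinal, was the highest (1.58, edgeR adjusted p = 2.64e-14), and Hamp, the iron hormone hepcidin, the lowest (-1.48, edgeR adjusted p = 1.19e-05). Of 30 secretory pathway genes, 1 rose and 1 fell, the signal peptidase subunit Spcs3 (1.20, edgeR adjusted p = 2.96e-12) and the oxidase Ero1b (-0.67, edgeR adjusted p = 5.27e-06), with a median of -0.08.

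Among 21 tested liver-enriched transcription factors 9 fell and none rose in WT on stiff, where 9.26% of all tested genes were lower. Their median log2 fold change was -0.45. Dbp, a circadian factor, was the lowest (-1.82, edgeR adjusted p = 4.87e-07), and Onecut1 the highest (0.33, edgeR adjusted p = 0.558). Hnf4a (-0.98, edgeR adjusted p = 2.44e-12) and Cebpa (-0.99, edgeR adjusted p = 5.08e-09), named after their values were seen, were among those that fell. In the same comparison 5 of the 10 carriers were lower and 3 higher at an adjusted p under 0.05 (edgeR, any fold change). A link between these factors and the carriers was not tested. Of 12 hepatocyte markers 5 fell and none rose, from -1.75 for Cyp2e1, a cytochrome P450 (edgeR adjusted p = 1.08e-14), to 0.28 for Hpd, an enzyme of tyrosine breakdown (edgeR adjusted p = 0.00200). In KO cells no gene of any of these lists was called between the hydrogels by edgeR or DESeq2, where edgeR called 0.0210% of all tested genes. Over the 147 listed and tested genes, other cell markers included, 12 (8.16%) had an unadjusted p under 0.05 (edgeR). Of all 14279 tested genes 1077 did. The lowest adjusted p in these lists was 0.580 (edgeR).

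**Figure D4:**
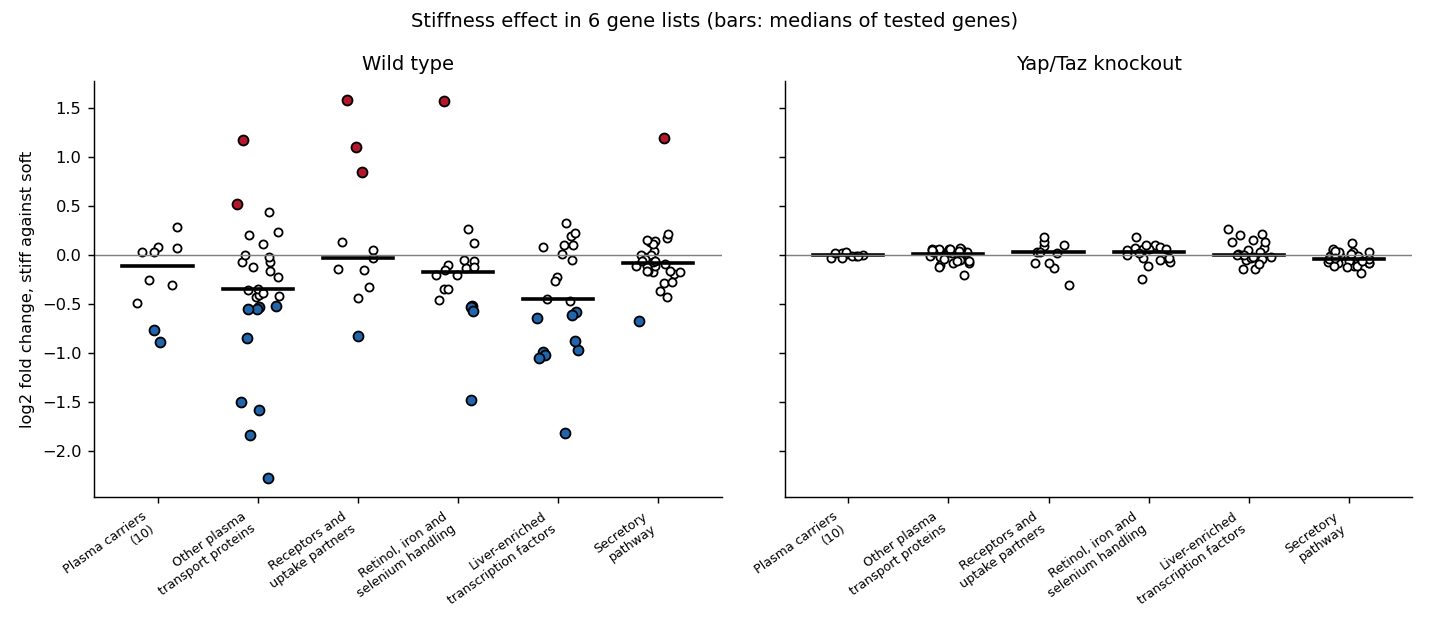
Points give the log2 fold change, stiff against soft, of each tested gene of 6 lists in WT (left) and KO (right), filled where called higher (red) or lower (blue), and bars give medians. In WT the carriers lie between -0.89 and 0.29 and the other plasma transport proteins between -2.28 and 1.18, and in KO no point is filled.

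Markers of other cells moved with the groups as well, where 19.3% of all tested genes were called in WT on stiff and 9.26% were lower. In WT on stiff, stellate cell and fibroblast markers held 1 gene that rose, Col1a1 (0.78, edgeR adjusted p = 0.00368), and 3 that fell among 9 tested, down to Pdgfrb (-1.53, edgeR adjusted p = 0.00126). Of 8 endothelial markers 4 fell, with Bmp2 lowest (-1.49, edgeR adjusted p = 9.16e-06) and Oit3 highest (0.36, edgeR adjusted p = 0.0412). Of 8 Kupffer cell markers 5 fell, with Timd4 lowest (-3.33, edgeR adjusted p = 0.0214) and Csf1r highest (-0.10, edgeR adjusted p = 0.724). Timd4 had only 21 and 4 counts in the WT soft libraries and 2 and 0 in the WT stiff ones, so its value is near the floor. Among 4 tested cholangiocyte markers Krt19 rose (3.30, edgeR adjusted p = 1.64e-10) and Epcam was the lowest (-0.37, edgeR adjusted p = 0.653), and Krt7 and Cftr were below the filter. The summed levels were 37.8 to 38.0 CPM in WT soft and 26.5 to 27.5 in WT stiff for stellate cells, 65.1 to 72.8 and 49.7 to 50.7 for endothelial cells, 79.8 to 83.8 and 55.1 to 61.7 for Kupffer cells, and 548 to 584 and 599 to 602 for cholangiocyte markers. In KO soft and stiff together the sums were 53.7 to 58.0, 87.5 to 94.0, 114 to 118 and 320 to 348 CPM in the same order. Hepatocyte markers summed to 7546 to 7559 CPM in WT soft, 5538 to 5615 in WT stiff and 7132 to 7361 in KO. Apoa1 (mean of 3758 CPM in WT soft) and Apob (2562) made up most of these sums. Against WT, 5 of the 12 hepatocyte markers were called lower and 2 higher in KO on soft. On stiff 4 were called lower and 5 higher. Of all tested genes 6.67% were called between genotypes on soft and 28.7% on stiff. Mitochondrially encoded genes took 2.75% to 3.68% of the counts, with the lowest shares in WT stiff. The part of these in the differences of the carriers was not tested.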

How the data were processed

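Counts per gene were deposited by the authors without normalization. Per the labels, reads of poly-A RNA were aligned with HISAT2 2.0.5 to mm9, and the study used featureCounts. The cDNA was made with dUTP, and how strand and multiply matching reads were counted is not given in the sources used here, and the deposited positions differ from GRCm38 (GENCODE M21), where 2.76% of 52073 matched IDs share a position. Gene lengths (in bases) were those of the deposited table. Library totals give the depth, and Wilson intervals of shares cover counting error only.

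Counts were filtered with filterByExpr by group (14279 genes), scaled by TMM and fitted for all 8 libraries with edgeR 4.0.16 (glmQLFit, glmQLFTest) in R 4.3.3, with 4 residual degrees of freedom and a common biological coefficient of variation of 0.0542. Benjamini-Hochberg adjustment ran over all tested genes, and calls needed an adjusted p under 0.05 together with a log2 fold change past 0.5 in size. The fold threshold is the study's, and edgeR was used in place of its DESeq2, which was run as an alternative (1.42.0). Normalized CPM are those of edgeR's cpm function. Steps were tested on simulated data. Alternatives covered the tool, scaling, filter, fold threshold, robust estimation, the libraries fitted, replicate number, denominator of shares and each library left out. Replicates differed by more than counting noise (chi-square per degree of freedom 2.62 to 5.45). Genes named beside the 10 members are the highest and lowest of each list by log2 fold change in WT, Afp, Fetub and Serpina7 as relatives by family, Hp as a functional partner of Hpx, the 5 nearest to Alb (1 of them is not reported here), and Yap1 and Wwtr1. Tfrc, Hnf4a and Cebpa were added after their values were seen. Members and lists were chosen with earlier results of these data known. Plots were made in Python 3.11.15 (matplotlib 3.10.9).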

Additional observations from a re-analysis of the deposited data

Results flagged for a closer look

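The stiffness effect differed between genotypes past the thresholds, by the interaction test of edgeR, for 3 of the 10 carriers. Of all tested genes 16.8% were called by this test and 8.64% were higher, and the count of 3 was not tested against these shares. The effect in KO minus that in WT was 0.86 on the log2 scale for Selenop (adjusted p = 2.67e-12), 0.78 for Ahsg (adjusted p = 9.35e-11) and 0.51 for Serpina6 (adjusted p = 0.0123). Selenop and Ahsg were lower in both WT stiff libraries than in both WT soft libraries. Over 17 alternatives the Serpina6 difference ranged from 0.37 to 0.63, with adjusted p from 0.00282 to 0.0807, while that of Selenop stayed between 0.83 and 0.88 and that of Ahsg between 0.74 and 0.80. Groups of 2 libraries are too small for a check of single outlying libraries.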

How the results depend on the processing

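The number of the 10 carriers called was 2 in WT (stiff against soft), 3 for the interaction, 2 for KO against WT on soft and 6 on stiff. Of all tested genes 19.3%, 16.8%, 6.67% and 28.7% were called in the same order. The number of carriers was within 1.5 times these counts under DESeq2, every scaling, both filters, robust estimation and the fit of the 4 libraries compared. It followed the fold threshold by construction. With no minimum fold change it was 8, 7, 10 and 10, and with an absolute log2 fold change over 1 it was 0, 0, 0 and 1. Leaving out 1 library gave 2 to 3 in WT, 0 in KO, 2 to 3 for the interaction, 2 on soft and 6 on stiff. Genes called among all tested were 5859, 4192, 2624 and 7299 with no minimum fold change and 1244, 1040, 353 and 2097 with an absolute log2 fold change over 1. In KO, stiff against soft, they were 3, but 50 with no filter on low counts, 1 with robust estimation, 1 with an absolute log2 fold change over 1, 9 in the fit of 4 libraries and 1 to 8 without 1 library, and the cause was not tested.

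The summed share moved by more than the SD between libraries when mitochondrial genes left the denominator (12.2% in WT soft, 12.3% in WT stiff, 9.32% in KO soft and 9.24% in KO stiff) and, for KO stiff, with tested genes as the denominator (8.93%). Without 1 library it was 11.8% to 11.9%, 11.9% to 12.0%, 8.98% to 8.99% and 8.92% to 8.93%. Log2 fold changes near 0 turned sign. Without 1 library, Afm ran from -0.0074 (without WT soft replicate 2) to 0.078 in WT. In KO the same ranges were -0.025 to 0.035 for Trf, -0.054 to 0.023 for Ttr, -0.020 to 0.0083 for Gc, -0.029 to 0.0058 for Hpx, -0.077 to 0.0080 for Afm and -0.12 to 0.14 for Serpina6. The turning libraries in KO were KO stiff replicate 2 for Trf, KO soft replicate 1 for Ttr, Gc and Afm, KO stiff replicate 1 for Hpx, and KO soft replicate 2 (-0.018) and KO stiff replicate 1 for Serpina6. Trf was also at -0.0019 with no filter. The interaction of Serpina6 also fell under the fold threshold with the members left out of the scaling (0.499) and with no filter (0.49).

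Replicate numbers did not pair the libraries: deviations of same-numbered libraries correlated between groups at -0.271 to 0.147 over 11077 genes. A replicate block left the carriers called at 2, 0, 3, 2 and 6 (WT, KO, interaction, soft and stiff) and the genes called at 2705, 3, 2330, 895 and 4071.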
